A study of Rattus norvegicus with 12 samples.

Results

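Livers of untreated rats were compared with livers of rats given the carcinogen N-nitrosodiethylamine (NDEA), over the 12039 gene IDs, of 34194 in the table, whose mean FPKM was at least 1 across the 6 libraries of these groups. FPKM is the number of fragments of a transcript relative to its length and to all fragments mapped in the library. Control rats had water to drink and intraperitoneal injections of 0.9% saline, 2 each week, over weeks 2 to 9. NDEA rats, the model group, received 25 mg/kg of NDEA by the same route on the same schedule and had the same drink. All were male Wistar rats of 140 to 160 g at the start, with 12 randomized to each of the 4 groups of the study. Livers were taken at week 20, and 3 liver samples per group gave 1 library each. The other 6 libraries came from NDEA rats that drank 1 of 2 green tea infusions, FYT or CFT-1 (3 livers each). They enter only where they are named. The ages of the rats, the lobe, and whether a sampled piece held nodules are not given in the sources used here.

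NDEA has to be activated before it acts. Mono-oxygenases of the hepatocyte convert it to a reactive ethylating species that binds DNA bases, and repeated doses lead from altered hepatocyte foci to nodules and hepatocellular carcinoma. The liver is also dominated by a few secreted-protein transcripts, so a small number of genes holds a large share of all fragments in such a library. In bulk tissue, fewer cells of a type and less RNA per cell cannot be told apart.

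Of the genes compared, 11312 carry Ensembl rat gene IDs and 727 carry IDs of another form. None of the IDs could be paired with a symbol from the files or the gene table used here (0 of 34194 matched). The liver label was therefore not checked against hepatocyte markers, lists of pathways and cell types were not applied, and single genes are given by ID with no statement of their function, position or sequence. A further 11617 IDs were detected somewhere among the 6 libraries but did not reach the mean of 1. Just below that limit, 1985 IDs had a mean FPKM of 0.5 to 1, with a median of 22 reads per library. Just above it, 2019 had a mean of 1 to 2, with a median of 57 reads.

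One NDEA liver stood apart from the other 5 livers of both groups. NDEA replicate 1 correlated with each of the others at a Pearson's r of 0.887 to 0.934 across genes on scaled log2(FPKM + 1), while the other 5 correlated with each other at 0.958 to 0.981. It had a score of 69.2 on the first principal component, which held 56.1% of the variance, and the other 5 had scores from −35.5 (Control replicate 3) to 3.83 (Control replicate 2). It was also the shallowest library, with 15495037 reads on genes, against 20657442 and 22412381 in NDEA replicates 2 and 3 and 22759993, 18835664 and 24715546 in Control replicates 1, 2 and 3. The number of genes with an FPKM of at least 1 was 13365 in NDEA replicate 1, 11704 and 11792 in NDEA replicates 2 and 3, and 11415, 11756 and 10548 in the Control libraries. Its 100 most abundant genes held 44.5% of the FPKM, against 51.6% and 50.6% in the other NDEA livers and 49.2%, 50.8% and 55.3% in Control. Control replicate 3 was at the other end on each of these measures, being the deepest and having the fewest genes at 1 FPKM and the highest share in the top 100. Between the groups, an exact permutation test over 20 assignments gave a two-sided p of 0.4 for reads, 0.2 for genes at 1 FPKM and 0.5 for the top-100 share, in a design that cannot go below 0.1. The part of depth and of this composition in the results that follow was not tested, and values without NDEA replicate 1 are given beside the main counts and medians.

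The distance between livers showed the same order. After median-of-ratios scaling, which divides each library by the median ratio of its genes to their geometric mean over the 6 libraries, 3.63% to 8.06% of genes lay at least 2-fold apart between any 2 Control livers. Between a Control liver and NDEA replicate 2 or 3, the share was 1.99% to 7.04%, and between NDEA replicates 2 and 3 it was 4.09%. These ranges overlap: NDEA replicates 2 and 3 lay about as far from the Control livers as the Control livers lay from each other. NDEA replicate 1 differed at least 2-fold from the Control livers at 18.6%, 12.6% and 25.0% of genes, and from NDEA replicates 2 and 3 at 18.6% and 14.0%. The pair of livers with the fewest 2-fold differences joined the groups, Control replicate 2 and NDEA replicate 3, at 240 genes.

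**Figure D1:**
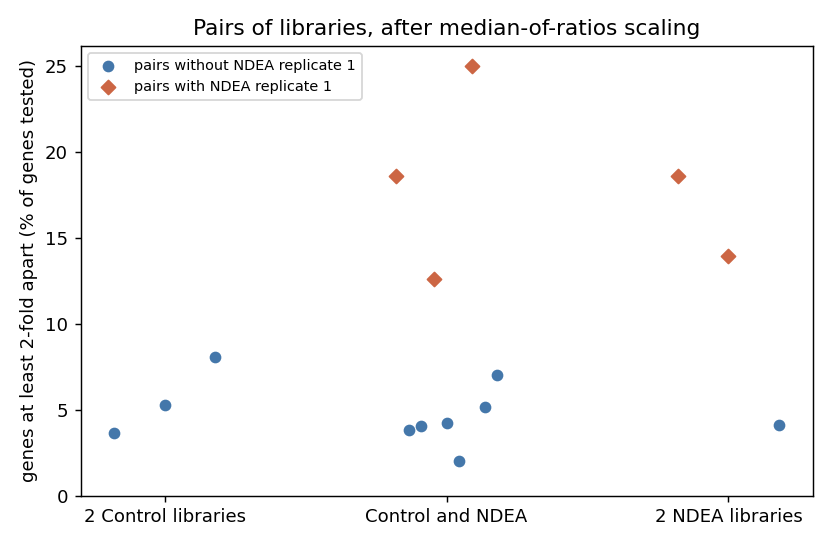
Share of the 12039 genes at least 2-fold apart in FPKM + 1, in percent, for each of the 15 pairs of libraries after median-of-ratios scaling; each point is 1 pair. Every pair with NDEA replicate 1 (diamonds) lies between 12.6% and 25.0%, above all pairs without it, which lie between 1.99% and 8.06%.

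Across all genes compared, the levels were higher in NDEA as deposited, and the scaling removed this by its construction, since it centres the libraries on each other. In the FPKM as deposited, 76.4% of genes had a higher mean log2(FPKM + 1) in NDEA, and the median difference, NDEA minus Control, was 0.20 on the log2 scale. Scaling moved that median to 0.01 and the share of genes higher in NDEA to 51.2%. It lowered NDEA relative to Control, so that 3027 genes changed from higher to lower. The scaling factors were 0.992, 0.990 and 0.803 for the Control libraries and 1.32, 0.969 and 1.01 for NDEA, and the values of NDEA replicate 1 were lowered and those of Control replicate 3 raised most. An exact permutation test of these factors between the groups gave a two-sided p of 0.4. The median as deposited also depended on single libraries: it was 0.08 without NDEA replicate 1, 0.13 without Control replicate 3 and 0.07 with libraries weighted by their spread.

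No gene passed the adjusted threshold on either scale. With limma and Benjamini-Hochberg adjustment, 0 of 12039 genes had an adjusted p-value under 0.05, which is 0% of the genes tested, and the smallest adjusted p-value was 0.731 as deposited and 0.797 after scaling. At the unadjusted limit of 0.05 there were 431 genes as deposited, or 3.58% of those tested, of which 365 (3.03%) were higher and 66 (0.548%) lower in NDEA. After scaling, 482 genes (4%) reached it, with 268 (2.23%) higher and 214 (1.78%) lower. If no gene differed, about 602 of the 12039 would reach it, more than on either scale. On both scales together, 252 genes were higher and 64 lower at this limit. The voom method of limma, run on whole reads recovered from the FPKM, also called 0 genes on both scales, with 464 genes at the unadjusted limit as deposited and 480 after scaling. Without NDEA replicate 1 the numbers at this limit were 323 and 386, with 0 genes called. One setting made calls. When each library was weighted by its own spread, 549 genes were called after scaling and 0 as deposited, with weights of 0.203 for NDEA replicate 1 and of 5.54 and 5.94 for Control replicate 1 and NDEA replicate 3, and the estimate of those weights stopped before it converged.

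The intervals of single genes were wide. The limma 95% interval of a gene's difference reached a median of 0.61 on the log2 scale to either side as deposited and 0.54 after scaling. A 2-fold difference in FPKM + 1 makes 1 on this scale, and a 2-fold difference in FPKM makes less for low genes. At the 90th percentile of genes, the interval reached 1.11 and 1.06. The count of 0 does not show that differences of this size were absent.

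Genes whose groups did not overlap were counted next. As deposited, all 3 NDEA libraries lay above all 3 Control libraries for 1298 genes (10.8%) and below them for 180 genes (1.5%). After scaling, 716 genes (5.95%) lay above and 669 (5.56%) below. Leaving out NDEA replicate 1, which sets 2 livers against 3 and so makes an overlap less frequent, gave 1610 above and 523 below as deposited, and 1108 and 1117 after scaling. Over all 6 libraries left out in turn, the counts ran from 1560 to 3100 above and from 232 to 590 below as deposited. After scaling, they ran from 1018 to 1888 above and from 959 to 1743 below, with the highest of each without Control replicate 2. Each of these counts sets 2 livers against 3, so it cannot be compared with the counts from all 6 libraries. Their rise over those counts does not show that more genes differed. No count for livers in random order is set beside them. Of the genes above after scaling, 677 were also above as deposited, which is 94.6% of the scaled set and 52.2% of the deposited set. For genes below, 169 were found on both scales, which is 25.3% of the scaled set and 93.9% of the deposited set. Among the IDs that are not Ensembl IDs, 29 lay above and 44 below after scaling (10.0% of the 727), beside 11.6% of the Ensembl IDs, and the median difference was −0.02 beside 0.01.

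**Figure D2:**
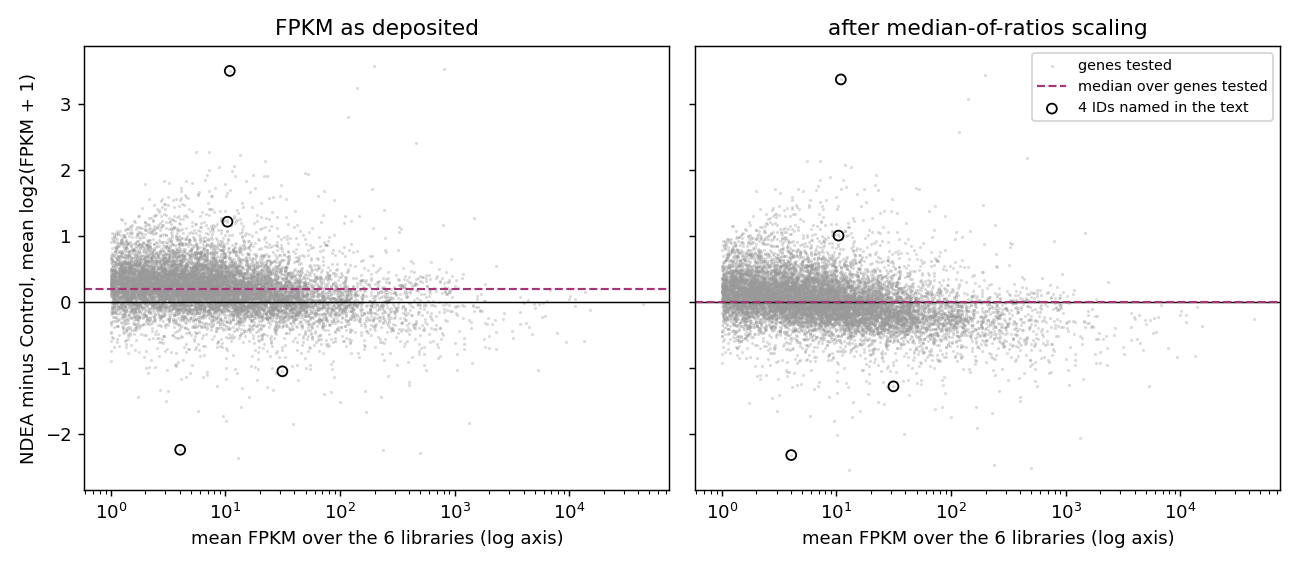
Difference in mean log2(FPKM + 1), NDEA minus Control, of each of the 12039 genes (points) against its mean FPKM over the 6 libraries on a log axis, as deposited (left) and after median-of-ratios scaling (right). The dashed line is the median over genes tested, 0.20 on the left and 0.01 on the right, and the cloud slopes down toward abundant genes on both sides. Rings mark the 4 IDs whose values are given for every library.

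The difference between NDEA and Control depended on how abundant a gene was. After scaling, the 3260 genes with a mean of 1 to 3 FPKM were higher in NDEA by a median of 0.13 on the log2 scale, and 2300 of them had the higher mean there. The median difference was 0.06 for genes of 3 to 10 FPKM, −0.07 for 10 to 30, −0.18 for 30 to 100 and −0.26 for 100 to 1000. For the 83 genes at 1000 FPKM or more it was −0.38, and 76 of the 83 were lower in NDEA. The order was the same in the FPKM as deposited, from 0.28 for the lowest class to −0.14 for the highest, where 61 of the 83 genes were lower. The genes with groups that did not overlap were spread unevenly over the classes. Of the genes at 100 to 1000 FPKM, 16.5% lay below Control in all 3 NDEA livers after scaling and 0.926% above, while of those at 1 to 3 FPKM 1.41% lay below and 8.80% above. As deposited, the shares at 100 to 1000 FPKM were closer to each other, with 6.88% below and 2.51% above, and those at 1 to 3 FPKM were farther apart, with 0.613% below and 14.7% above.

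Each NDEA liver was then set against the Control mean, which the 3 share, so that an error of that mean appears in all of them. After scaling, the median difference of NDEA replicate 1 went from 0.21 at 1 to 3 FPKM to −0.84 at 1000 FPKM or more. In NDEA replicate 2 it went from 0.10 to −0.15, with −0.20 at 100 to 1000 FPKM, and in NDEA replicate 3 from 0.06 to −0.25. Without NDEA replicate 1, the medians of the group were 0.09 in the lowest class, −0.18 at 100 to 1000 FPKM and −0.16 in the highest. As deposited and without that liver, they were 0.14, −0.08 and −0.06.

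**Figure D3:**
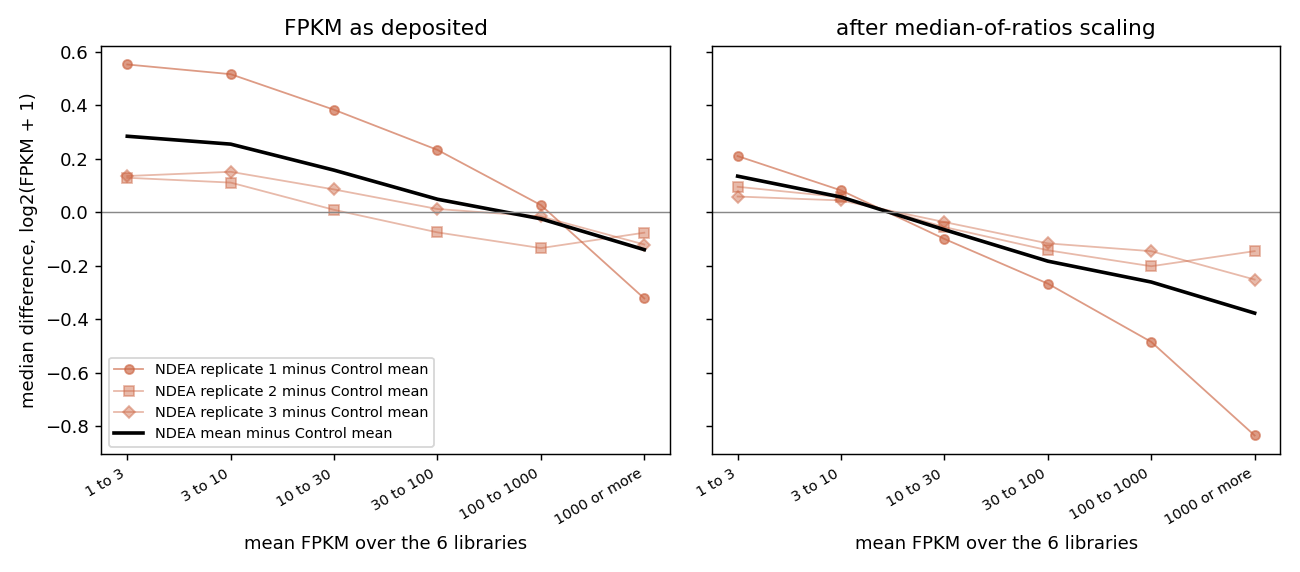
Median difference from the Control mean in log2(FPKM + 1), by class of mean FPKM, as deposited (left) and after median-of-ratios scaling (right). Thin lines with symbols are the 3 NDEA livers and the thick line is the NDEA mean; after scaling, it runs from 0.13 in the lowest class to −0.38 in the highest, and NDEA replicate 1 reaches −0.84.

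To set this dependence on abundance against the spread of the Control livers, the departure of each library from the mean of the 6 was taken in the highest and the lowest class, and the lowest was subtracted from the highest. After scaling, this span was 0.17, 0.12 and 0.59 in Control replicates 1, 2 and 3, and −0.80, 0.02 and 0.01 in NDEA replicates 1, 2 and 3. The groups did not overlap. Control replicate 3 lay farther from Control replicates 1 and 2 than NDEA replicates 2 and 3 did, while Control replicates 1 and 2 lay closer to each other than to any NDEA liver. The mean span was 0.29 ± 0.26 in Control and −0.25 ± 0.47 in NDEA (SD, n = 3 each), and the two-sided exact permutation p was 0.1, the lowest that can be had from 3 livers against 3. As deposited, it was 0.24 ± 0.18 and −0.21 ± 0.40, and the exact permutation p was again 0.1. The livers at the ends, Control replicate 3 and NDEA replicate 1, were also the deepest and the shallowest library.

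The difference was also set against the length of the transcript. Gene lengths were obtained from the reads and the FPKM of each gene, and the genes were split into 4 classes of nearly equal number with median lengths of 819, 1634, 2466 and 4168 bases. The median difference after scaling was −0.03, −0.01, 0.01 and 0.05 in these classes. It was −0.10 and 0.07 in the shortest and the longest class for NDEA replicate 2, −0.05 and 0.03 for NDEA replicate 3, and 0.01 and 0.03 for NDEA replicate 1. Without NDEA replicate 1, the group medians were −0.07 and 0.05 in the shortest and the longest class. As deposited, they were 0.17 and 0.23 with all livers and 0.02 and 0.13 without NDEA replicate 1. That liver alone went the other way on this scale, with 0.47 in the shortest and 0.43 in the longest class.

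The most abundant ID of the table, ENSRNOG00000002911, had FPKM values of 41878, 42895 and 47376 in the Control livers and of 34777, 49742 and 46646 in the NDEA livers. NDEA replicate 1 had the lowest value and NDEA replicate 2 the highest, and the groups overlapped. Its mean was 44049 ± 2925 FPKM in Control and 43722 ± 7899 FPKM in NDEA (SD, n = 3 each), a difference of −0.03 on the log2 scale as deposited and of −0.26 after scaling (limma, adjusted p = 0.977 and 0.884).

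Large differences between the group means were carried mostly by 1 liver. The group means of FPKM + 1 lay at least 2-fold apart for 383 genes as deposited (3.18%), 331 higher (2.75%) and 52 lower (0.432%) in NDEA, and for 273 genes after scaling (2.27%), 179 higher (1.49%) and 94 lower (0.781%). Among the 179 genes higher after scaling, NDEA replicate 1 was the liver farthest from the Control mean for 153, NDEA replicate 2 for 12 and NDEA replicate 3 for 14. Among the 94 lower genes, these numbers were 74, 13 and 7. In each of the 3 NDEA livers the difference from the Control mean was at least 2-fold for 13 of the higher and 5 of the lower genes. With NDEA replicate 1 left out, 49 of the 179 and 33 of the 94 kept a 2-fold difference. The mean of the other NDEA livers was on the same side of Control for 170 and 93. The genes were chosen with these livers and the same Control mean, so these numbers are not a test.

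The counts of 2-fold genes moved with the library that was left out. Leaving out NDEA replicate 1 gave 82 higher and 43 lower genes after scaling, and 96 and 33 as deposited. Leaving out NDEA replicate 2 gave 454 and 238 after scaling, and 858 and 103 as deposited. Without NDEA replicate 3 the scaled numbers were 319 and 212, and without Control replicate 2 they were 369 and 186. As deposited, they were 616 and 92 without NDEA replicate 3 and 662 and 84 without Control replicate 2. The higher genes as deposited became fewer without Control replicate 3, with 219 higher and 85 lower, where the scaled numbers were 150 and 112.

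Few genes lay at least 2-fold outside the Control range in more than 1 NDEA liver. After scaling, NDEA replicate 1 was at least 2-fold above the highest Control liver at 672 genes and at least 2-fold below the lowest at 406. NDEA replicate 2 was so at 41 and 32 genes, and NDEA replicate 3 at 27 and 15. Exactly 1 of the 3 livers was above this limit at 701 genes, exactly 2 at 18 and all 3 at 1. Below it, the numbers were 418, 16 and 1. As deposited, the balance was different: NDEA replicate 1 was above this limit at 1317 genes and below it at 148, and exactly 1 of the livers was above at 1333 and below at 164. NDEA replicates 2 and 3 were both above at 2 genes and both below at 1 gene. No tested gene was without a read in all 3 livers of one group and read in all 3 of the other. Among the untested IDs, 84 had no read in Control and at least 1 in each NDEA liver, and 30 the reverse. At 3 or more reads in each liver of the other group, those numbers were 1 and 0.

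The spread within NDEA was wider than within Control for 7357 genes, or 61.1% of those tested. The median SD of scaled log2(FPKM + 1) was 0.28 in NDEA and 0.23 in Control. The median absolute difference between NDEA replicates 2 and 3 was 0.22, inside the range of 0.21 to 0.34 among pairs of Control livers, and that between NDEA replicate 1 and the other livers was 0.33 to 0.54.

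Single genes were taken by the width of the gap between the nearest libraries of the groups and by the smallest p-value, and of these 2 IDs higher and 2 lower in NDEA are given with all values. The 12 widest gaps among genes higher in NDEA were 0.54 to 1.00 on the scaled log2 scale, with differences in means of 0.96 to 3.38, and NDEA replicate 1 was the farthest liver for 9 of the 12. The 12 widest among genes lower in NDEA were 0.43 to 1.18, with differences of −2.32 to −0.66, and NDEA replicate 1 was the farthest for 7. Of these 24 genes, 3 carry IDs that are not Ensembl IDs. Several of those higher in NDEA had a Control mean under 1 FPKM, down to 0.120. They reached the mean of 1 over the 6 libraries only through the NDEA livers. The genes were chosen for their gaps, so these values describe them and are not a test.

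ENSRNOG00000000451 had the widest gap among genes higher in NDEA. Its FPKM was 2.79, 0 and 0.0484 in the Control livers, from 53, 0 and 1 reads, and 36.0, 6.43 and 20.3 in the NDEA livers, from 466, 111 and 380 reads. All NDEA livers were above all Control livers, and Control replicate 1 was the only Control liver with more than 1 read. The mean was 0.945 ± 1.59 FPKM in Control and 20.9 ± 14.8 FPKM in NDEA (SD, n = 3 each). The difference was 3.51 ± 0.71 on log2(FPKM + 1) as deposited and 3.38 ± 0.67 after scaling (SE). Its Control mean was under 1 FPKM, so it reached the mean of 1 over the 6 libraries only through the NDEA livers, and no p-value is given for it. Reads pooled over livers, relative to the pooled library totals, were 20.1-fold higher in NDEA. With Control replicate 1 left out, this ratio was 712 and rested on the 1 read that remained in Control. The ID was chosen for its gap, so these ratios describe its reads and are not a test. Without NDEA replicate 1 the scaled difference was 2.94. In the 6 livers of tea-drinking NDEA rats, which had no part in the choice, the FPKM ranged from 0 to 16.6 with a median of 0.0581. It was 0.0596, 0 and 7.63 with FYT and 16.6, 0.0565 and 0 with CFT-1.

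ENSRNOG00000043416 had the smallest p-value on both scales. Its FPKM was 6.62, 6.45 and 4.64 in the Control livers, from 284, 229 and 216 reads, and 15.4, 15.1 and 14.3 in the NDEA livers, from 451, 587 and 604 reads. As deposited, the NDEA livers were close to each other and all above the highest Control liver, and NDEA replicate 1 did not stand out. After scaling, the NDEA livers were at 11.7, 15.6 and 14.1, with NDEA replicate 1 the lowest, and the highest Control liver was at 6.67. The mean was 5.90 ± 1.10 FPKM in Control and 14.9 ± 0.584 FPKM in NDEA (SD, n = 3 each). The difference was 1.22 ± 0.19 as deposited and 1.01 ± 0.16 after scaling (SE), with unadjusted limma p-values of 0.000336 and 0.000424 and adjusted p-values of 0.731 and 0.797. Without NDEA replicate 1 the scaled difference was 1.11. In the tea livers it ranged from 4.94 to 23.8 FPKM with a median of 15.3.

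ENSRNOG00000019050 had the widest gap among genes lower in NDEA, at few reads. Its FPKM was 21.2, 1.41 and 1.41 in the Control livers, from 996, 55 and 72 reads, and 0.0936, 0.0702 and 0.0432 in the NDEA livers, from 3, 3 and 2 reads. All Control livers were above all NDEA livers, but Control replicate 1 held 996 of the 1123 Control reads. The mean was 7.99 ± 11.4 FPKM in Control and 0.0690 ± 0.0253 FPKM in NDEA (SD, n = 3 each). The difference was −2.24 ± 0.82 as deposited and −2.32 ± 0.81 after scaling (SE). It reached the mean of 1 FPKM over the 6 libraries only through the Control livers, and no p-value is given for it. The difference was −1.17 and −1.29 without Control replicate 1, from the same set of genes tested. Pooled reads relative to the library totals were 124-fold higher in Control, and 21.3-fold higher without Control replicate 1. This ID was also chosen for its gap, so these ratios are not a test. In the tea livers its FPKM ranged from 0.0188 to 2.35 with a median of 0.385. It was 0.0723, 2.35 and 0.176 with FYT and 0.0188, 0.594 and 1.11 with CFT-1.

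ENSRNOG00000010134 had the smallest p-value among genes lower in NDEA after scaling. Its FPKM was 55.1, 40.3 and 32.4 in the Control livers, from 2980, 1802 and 1904 reads, and 21.3, 13.7 and 25.7 in the NDEA livers, from 783, 671 and 1369 reads. The groups did not overlap, and NDEA replicate 2 was the lowest liver. The mean was 42.6 ± 11.5 FPKM in Control and 20.2 ± 6.09 FPKM in NDEA (SD, n = 3 each). The difference was −1.05 ± 0.30 as deposited and −1.28 ± 0.26 after scaling (SE), with unadjusted limma p-values of 0.0089 and 0.0017 and adjusted p-values of 0.731 and 0.797. Without NDEA replicate 1 the scaled difference was −1.20. In the tea livers its FPKM ranged from 24.2 to 54.2 with a median of 28.2. It was 24.4, 27.4 and 54.2 with FYT and 35.4, 29.1 and 24.2 with CFT-1.

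**Figure D4:**
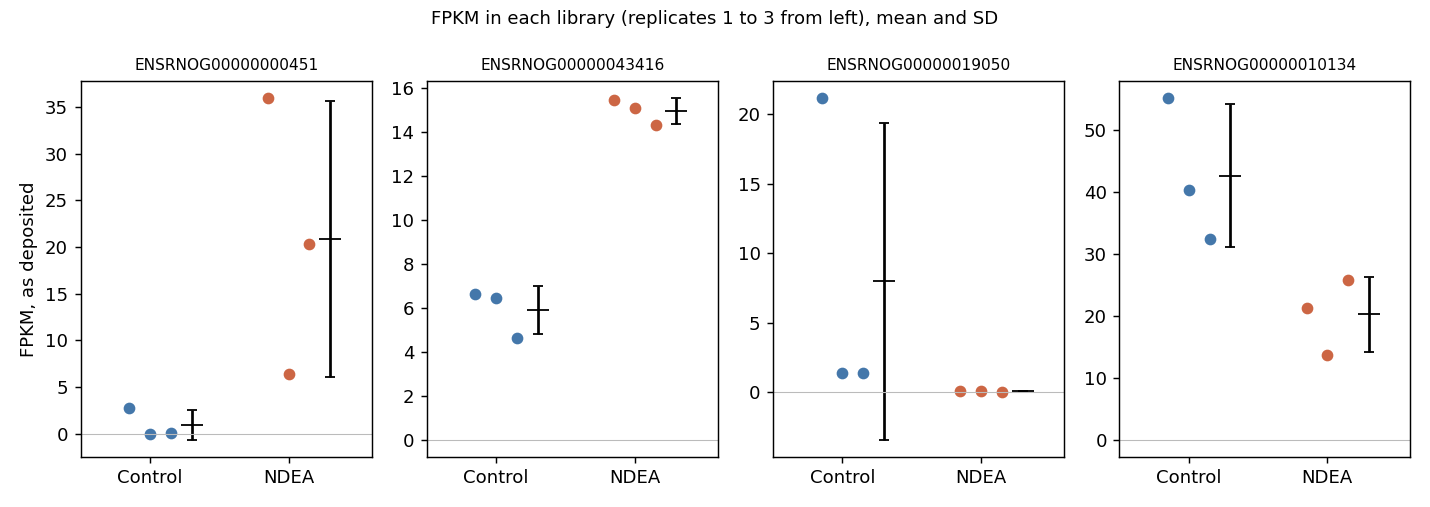
FPKM as deposited of 4 IDs in the 3 Control (blue) and 3 NDEA (orange) libraries, 1 point per library with replicates 1 to 3 from left to right, and the mean with its SD beside them. The groups do not overlap in any panel; the spread is narrow for ENSRNOG00000043416, and 1 liver of 21.2 FPKM sets the Control mean of ENSRNOG00000019050.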

How the data were processed

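Livers of the Control and NDEA groups were analysed, 3 libraries each. Paired reads were trimmed by the authors (Trimmomatic) and aligned (HISAT2), PCR duplicates were dropped, and unique reads per gene were deposited as FPKM values. The submitters' processing notes also name HTSeq 0.6.1 and the genome build Rnor_6.0.

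Genes averaging 1 FPKM or more in the 6 libraries were compared on log2(FPKM + 1), as deposited and after median-of-ratios scaling, with limma 3.58.1 in R 4.3.3 (lmFit, eBayes with a trend, two-sided, Benjamini-Hochberg adjustment over all genes tested). A fold change on log2(FPKM + 1) understates the change of low genes. Differences are NDEA minus Control. FPKM are whole multiples of the value of 1 read, so whole reads were recovered for 100% of the 12039 genes (within 0.01 of a whole read), which gave depths of 15495037 to 24715546 reads. Ratios of pooled reads ignore the spread between livers and are given without an interval. DEGSeq, the authors' test, was not run. The labels describe separate liver samples, and nothing pairs the replicate numbers. The fit was tested on simulated data. Distances and exact permutation tests used scipy 1.17.1, and plots matplotlib 3.10.9.

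The members and lists were chosen with earlier results of these data known. The rule for named genes was the marker genes, the members of 37 gene lists, the 12 genes in each direction with a symbol and the widest gap between libraries, the 5 with the smallest p-value on each scale, and the genes the study chose for qRT-PCR. Only the gaps, without a symbol, and the p-values could be used, because 0 IDs were paired with a symbol. From them 2 IDs in each direction, the widest gap and the smallest scaled p-value, and the most abundant ID were picked after their values were seen. Gene lists and markers were not analysed here.

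Alternatives were a pseudocount of 0.1, no filter, a mean FPKM of at least 5, all 4 groups in 1 fit, eBayes without trend, the replicate number as a block, library weights, quantile normalization and each library left out. The voom fit, and the counts and level classes with a library left out, were added after seeing the data.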

Additional observations from a re-analysis of the deposited data

How the results depend on the processing

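With the FPKM as deposited, 0 genes had a limma adjusted p-value under 0.05 in any of the 15 alternatives, beside 431 at an unadjusted p-value under 0.05, and the smallest adjusted p-value ranged from 0.164 to 1.00. After median-of-ratios scaling, 549 genes were called with library weights, with 3548 at the unadjusted limit and a smallest adjusted p-value of 0.0342, and 0 in the 14 other alternatives. These weights were 5.54 for Control replicate 1, 5.94 for NDEA replicate 3 and 0.203 for NDEA replicate 1, and their estimate stopped before it converged. The cause was not tested. The number of genes at the unadjusted limit was 746 as deposited and 849 after scaling with no filter, and 230 and 271 at a mean FPKM of at least 5, where more or fewer genes were tested. With all 4 groups in 1 fit it was 1044 and 970, of which the cause was not tested. Leaving out 1 library gave 204 to 957 as deposited and 195 to 894 after scaling. As deposited, it was 206 without Control replicate 1, 204 without Control replicate 3 and 957 without NDEA replicate 2, and after scaling 195, 285 and 894. The other alternatives stayed within 1.5 times the counts of 431 and 482. With the replicate number as a block, it was 412 and 326, with 0 genes called. Nothing in the labels pairs the livers by these numbers. The deviations of same-numbered libraries from their group means correlated at −0.16, −0.39 and 0.06 as deposited and at −0.13, −0.40 and 0.09 after scaling. Those of differently numbered libraries correlated at −0.24 to 0.38 as deposited and at −0.27 to 0.40 after scaling. Deviations cancel within a group of 3, so these correlations cannot decide whether livers were paired. The median difference over all genes depended on the scaling and, as deposited, on NDEA replicate 1, Control replicate 3, library weights and the filter (0.11 without it), and it was −0.02 with quantile normalization. The 4 named IDs kept their direction in every alternative in which they were tested, but the size of some differences moved. They were chosen for their gaps or p-values and their groups do not overlap. Their direction was therefore largely fixed by the choice, and its persistence is not a test. For ENSRNOG00000000451 the difference ran from 2.37 to 6.39 as deposited and from 2.67 to 6.18 after scaling. For ENSRNOG00000019050 it ran from −5.53 to −1.17 and from −5.83 to −1.29. The largest of these came from voom. ENSRNOG00000019050 rested on 2 or 3 reads in each NDEA liver.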
